A study of Gallus gallus with 4 samples.

Results

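Chick chorioretina, that is retina with the pigment epithelium and choroid behind it, was compared between eyes covered with a glass goggle under normal light and uncovered eyes under violet light. These are 2 of the 4 arrays of the study, chosen because their labels are the same in the scanner files and in the authors' value table. The comparison covered 4839 named genes of the 5294 that could be named on the array, and 35964 probes of 43603. Each array carried 1 pool of RNA from 4 eyes, and the study used 16 eyes of 8 chicks.

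Per the labels' protocols, the covered normal-light pool came from right eyes that wore the goggle for 7 days from day 6 after hatching, under normal light. The uncovered violet-light pool came from left eyes without a goggle, in chicks kept under violet light for the same days. All chicks had 12 hours of light a day, and no strain or sex is named. Tissue was taken on day 13 as buttons 6 mm wide, temporal to the optic nerve, after tissue outside the eye had been cleaned off. The pools differ in the goggle, in the light, in the side of the eye and in the chicks they came from. Goggle, light, eye-side and animal effects therefore cannot be told apart. With 1 pooled array a side there is no replicate and no test, and a difference is described by its size, 2-fold being 1 on the log2 scale.

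In myopia the eye grows too long for its optics. In young chicks, covering an eye so that it loses sharp images makes the eye elongate, and the retina passes the growth signal through the pigment epithelium and choroid to the sclera. EGR1, called ZENK in chicks, is an immediate-early transcription factor of amacrine cells whose level is known to be low when the eye elongates and high when growth slows. Violet light has been reported to restrain such elongation, so the covered eye under normal light and the uncovered eye under violet light were the design's extremes for growth.

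The other pools were an uncovered one under normal light and a covered one under violet light, whose labels are crossed between the deposited sources. Across probes, the correlation of a table column with its own scanner file was 0.9995 for covered normal light and 0.9996 for uncovered violet light. The remaining columns matched each other's files better than their own, at 0.9992 and 0.9997 against 0.9813 and 0.9815. Below, the first of these arrays is called by its scanner label, uncovered normal light, and the second covered violet light, and no statement on the main difference depends on either. The 2 compared arrays correlated at 0.9877 with each other, within the range of 0.9797 to 0.9926 over all pairs. The 75th percentile of the signal was 797.5 in the covered normal-light array and 1325 in the uncovered violet-light array, and no spot was saturated. The 8 spike-in control RNAs above background were 0.82 to 0.99 higher (log2) in the covered normal-light array after scaling and 0.09 to 0.26 higher before it, so a level here is relative to the sample's own 75th percentile.

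Markers of the labelled tissue were present on both arrays. Of the named genes on the array, 10 of 10 photoreceptor markers, 5 of 5 of bipolar cells, 10 of 10 of amacrine and horizontal cells, 7 of 7 of ganglion cells and 11 of 11 of pigment epithelium and melanocytes passed the background filter. The median differences of these 5 lists were -0.11, -0.02, -0.20, -0.01 and 0.30, beside 0.03 over all 4839 genes. Of 8 Mueller glia markers 7 passed, with a median of -0.05, and 28 of 31 transmitter and endothelin receptors passed, with a median of -0.04. Ribosomal proteins (47 genes, median -0.05, between -0.32 and 0.22) and subunits of oxidative phosphorylation (28 genes, median -0.03, between -0.29 and 0.18) had no member at 2-fold. In tissue pools, fewer cells of a type and less RNA per cell cannot be told apart.

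In all, 129 genes reached 2-fold higher levels in the covered normal-light pool (2.67% of those measured) and 35 reached 2-fold lower levels (0.723%). Over all passing probes, named or not, 690 were higher (1.92%) and 144 lower (0.4%). Most genes lay close together, with 88.8% within 0.5 of 0 on the log2 scale. Of all measured genes, 2644 (54.6%) lay above 0, the share to set beside counts of list members above or below 0. With so few genes at 2-fold, a short list without such a member is not set apart by that. Large differences were mainly in one direction, since 44 genes were 4-fold or more higher and 2 were 4-fold or more lower, the lens gene CRYBB1 and the interferon-induced gene IFI6. The spread between probes of one gene was 0.23 (pooled SD of the log2 difference, 3168 genes with at least 2 probes), and that between repeated spots of one probe was 0.074 (SD, 33 probes with 5 spots each). Both cover measurement error alone and not the spread between animals. Of the 164 genes, 136 were also at least 2-fold different the same way in the authors' value table. That table holds values of the same arrays, so agreement with it checks the processing alone and is no replicate.

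**Figure D1:**
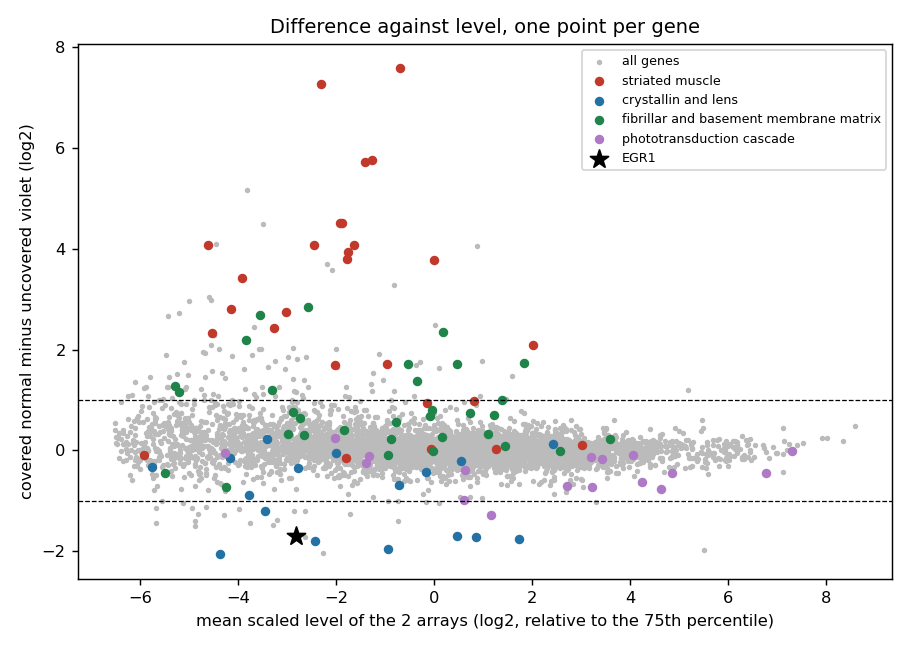
The horizontal axis is the mean scaled level of the 2 arrays and the vertical axis the difference, covered normal light minus uncovered violet light, both log2, with 1 point per gene and dashed lines at 2-fold. Striated muscle genes reach the top of the plot at 7.58, crystallins lie lowest at -2.06, EGR1 lies at -1.69, and most of the 129 higher genes are dim.

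Split into 5 nearly equal groups by brightness, the dimmest genes held 80 of the 129 higher and 20 of the 35 lower genes, and the brightest group held 1 and 2. The median difference was 0.16 in the dimmest group and -0.01 in the brightest. The higher gene of the brightest group was the cone pigment OPN1LW, and one of the lower genes was the retinol carrier RBP4.

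EGR1 was lower in the covered normal-light pool. Its scaled level was -3.66 in covered eyes under normal light and -1.96 in uncovered eyes under violet light, a difference of -1.69 or 3.24-fold. On the arrays labelled uncovered normal light and covered violet light by the scanner files it was -2.21 and -3.43. The covered violet-light array thus lay near the covered normal-light one, and the uncovered normal-light array near the uncovered violet-light one. Both probes of EGR1 gave similar differences, -1.69 and -1.59, and the authors' value table gave -1.86. With normexp background correction, which shrinks the differences of dim genes, it was -0.96, just under 2-fold, and 87 of the 129 higher and 12 of the 35 lower genes stayed past 2-fold.

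No other measured immediate-early gene was 2-fold different. Of 24 listed, 8 could be named on the array and 7 passed, with a median difference of 0.01. FOS and JUN, which pair to form the transcription factor AP-1, differed by 0.09 and 0.01. The activity-regulated cytoskeleton gene ARC differed by 0.01, the growth regulator MYC by 0.29, the phosphatase DUSP1 by 0.13 and the matricellular gene CYR61 by 0.0012. EGR1 was thus the one member of 7 past 2-fold, beside 0.723% of all genes at 2-fold lower. The other members stayed within 0.29. As 88.8% of all genes lay within 0.5 of 0, those small differences do not set the list apart.

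Photoreceptors turn light into a signal through an opsin, the G protein transducin, a phosphodiesterase and a cyclic-nucleotide-gated channel, and kinases and arrestins shut the opsin off. The red cone pigment OPN1LW was higher and most genes of the cascade behind it were lower. OPN1LW had a scaled level of 5.78 in the covered normal-light pool, against 4.59 in the uncovered violet-light pool, a difference of 1.19 or 2.29-fold. Its levels on the arrays labelled uncovered normal light and covered violet light were 4.27 and 5.94, the same pairing of arrays as for EGR1, with the direction reversed. The other 6 measured opsins, of 10 named on the array, were less than 2-fold higher. The green pigment OPN1MSW differed by 0.39, the retinal G-protein-coupled receptor RGR by 0.35, the blue-sensitive pigment OPN2SW by 0.23, melanopsin OPN4 by 0.20, peropsin RRH by 0.18 and pinopsin OPNP by 0.12. OPNP was at -0.10 in the authors' value table, so its direction is unsettled.

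Genes of the phototransduction cascade were lower in the covered normal-light pool in 16 of 17 cases, with a median of -0.38. The cone opsin kinase GRK7 had levels of 0.54 in the covered normal-light and 1.81 in the uncovered violet-light pool, a difference of -1.28 or 2.42-fold. GRK7 was the one member of 17 at 2-fold, beside 0.723% of all genes at 2-fold lower. Its levels on the other arrays were 1.81 for uncovered normal light and 0.55 for covered violet light, so that the arrays fell into 2 close pairs. The cone channel subunit CNGA3 fell just short of 2-fold at -0.99, with the same pairs (0.12 and 0.11 against 1.11 and 1.18). RGS9BP, the anchor of the transducin-quenching protein RGS9, differed by -0.76. The cone phosphodiesterase subunits PDE6H and PDE6C differed by -0.73 and -0.70, and the guanylate cyclase activator GUCA1A by -0.62. The rod and cone transducins GNAT1 and GNAT2 were nearly level at -0.05 and -0.0031, and the exception to the direction was GUCA1B at 0.24. GNAT2 was at 0.09 in the authors' value table, and the transducin subunit GNB1, at -0.09, had probes up to 0.29. The direction of GNAT2 and GNB1 is thus unsettled, though both are counted as lower. The list's median lay between -0.54 and -0.37 over the alternative processing settings.

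Among 27 measured retinal transcription factors, 14 were above and 13 below 0, with a median of 0.02. NR2E3, a nuclear receptor that sets rod identity in mammals, was the one at 2-fold, beside 0.723% of all genes at 2-fold lower. NR2E3 had -0.41 for covered normal light, 0.63 for uncovered violet light and a difference of -1.03. Its probes ranged from -1.03 to -0.66, and its difference after normexp correction was -0.98. It stood at 0.78 on the uncovered normal-light array and -0.02 on the covered violet-light array.

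Vitamin A handling held a large difference in each direction. RBP4, the plasma carrier of retinol that the pigment epithelium also makes, had levels of 4.53 in covered eyes under normal light and 6.5 in uncovered eyes under violet light, a difference of -1.97 or 3.93-fold. The uncovered normal-light array gave 6.29 and the covered violet-light array 4.72, so RBP4 showed the pairs of EGR1 and GRK7 at a bright level, where few genes differed. ALDH1A3, an enzyme that makes retinoic acid, went the other way, with -3.06 against -6.10 and a difference of 3.04 or 8.21-fold. After normexp correction the difference was 1.62. Here the uncovered normal-light array was intermediate at -4.83, and the covered violet-light array stood at -6.76, not well above background. ALDH1A2, the retinoic acid enzyme of the choroid in chicks, differed by 0.66, and RPE65, the isomerase of the visual cycle, by 0.58. The median of the 18 measured members was 0.10.

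**Figure D2:**
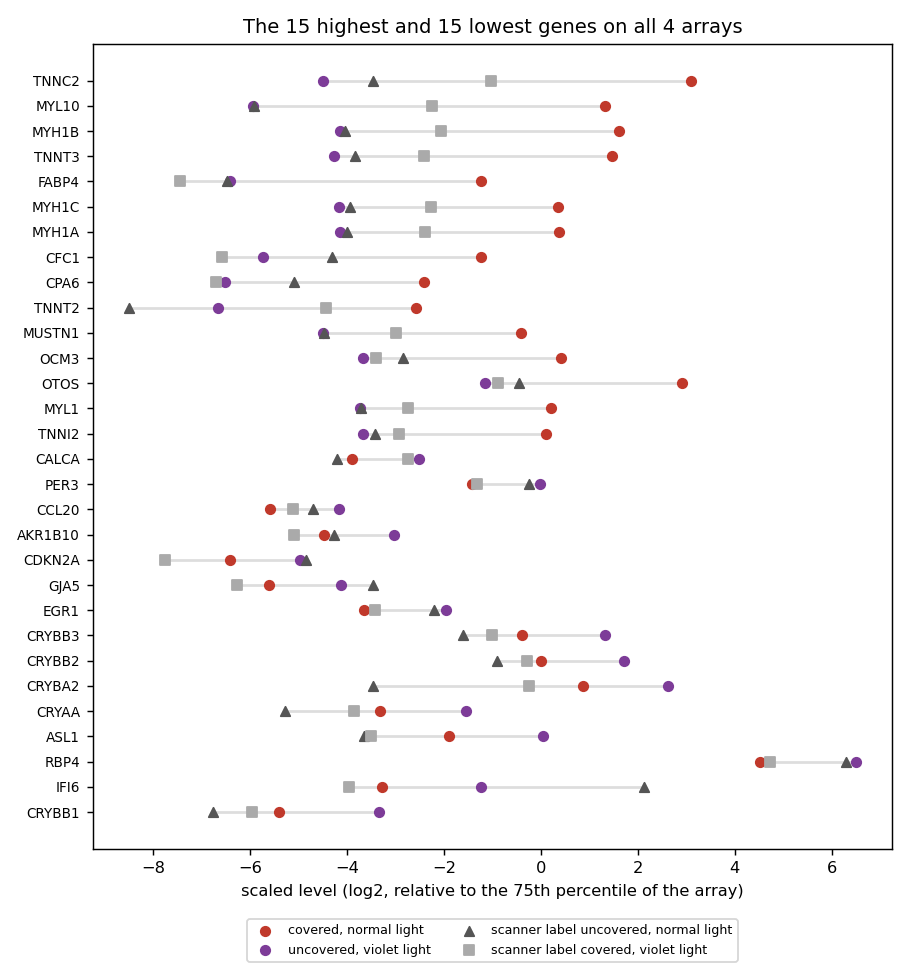
Each row is a gene and the horizontal axis its scaled level (log2) on the 4 arrays, for the 15 highest and 15 lowest genes. For RBP4, EGR1 and PER3 the points fall into 2 pairs, for muscle genes such as MYL10 the covered normal-light point stands apart at 1.33, and for the crystallins the uncovered violet-light point is the highest.

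Clock genes time daily rhythms, and in the retina they drive melatonin and dopamine. PER3, a repressor of the clock, stood at -1.43 in the covered normal-light pool, against -0.03 in the uncovered violet-light pool, a difference of -1.40. Its levels of -0.25 for uncovered normal light and -1.32 for covered violet light again paired the arrays. The activators ARNTL and NPAS2 and the modulator NFIL3 lay higher, ARNTL by 0.57, NPAS2 by 0.61 and NFIL3 by 0.78, and the repressor genes CRY1 and PER2 lay lower at -0.38 and -0.36. No other of the 16 measured clock genes passed 2-fold by its brightest probe. The 2 probes of ARNTL gave 0.57 and 1.44, and their mean, 1.01, lay just past 2-fold. The list's median of -0.17 changed sign over the alternatives, between -0.32 and 0.01. The sources used here do not give the hour at which each pool was collected.

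The melatonin receptor MTNR1A and tyrosine hydroxylase TH, the first enzyme of dopamine synthesis, differed by -1.29 and -1.19. By the brightest probe they were the 2 of 11 measured melatonin and dopamine genes at 2-fold, beside 0.723% of all genes at 2-fold lower. After normexp correction neither reached 2-fold, at -0.37 and -0.67. TH had levels of -3.45 for covered normal light, -2.26 for uncovered violet light, -2.29 for uncovered normal light and -2.31 for covered violet light. The covered normal-light pool was thus the low one of 4, and the other 3 lay close together. ASMT, which finishes melatonin synthesis, differed by -0.94. Its probes ranged from -1.18 to -0.94, and their median, -1.13, lay past 2-fold. The dopamine receptor DRD4 differed by -0.46 and AANAT, the timed enzyme of melatonin synthesis, by -0.21. The list's median was -0.21, with 8 members below 0 and 3 above. The probes of DRD4 ranged from -0.46 to 0.46, so its direction is unsettled, though it is counted as below 0.

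Retinal peptides were mostly lower, with 11 of 16 below 0 and a median of -0.38, while 54.6% of all genes lay above 0. CALCA, the calcitonin and CGRP gene, differed by -1.37, and PRLL, a relative of prolactin, by -1.25. The probes of CALCA ranged from -1.37 to -0.38, and after normexp correction CALCA was at -0.71 and PRLL at -0.97. Glucagon (GCG), the peptide of chick amacrine cells that carry EGR1, had -0.38 in covered eyes under normal light and 0.25 in uncovered eyes under violet light, a difference of -0.63. It stood at -0.15 on the uncovered normal-light array and 0.34 on the covered violet-light array. The uncovered normal-light array thus lay nearer the covered normal-light one, unlike for EGR1. Neuropeptide Y (NPY) differed by -0.63 and VIP by -0.58, both below 2-fold. Of the muscarinic receptors, the targets of atropine, CHRM2 differed by -0.11, CHRM3 by 0.11 and CHRM4 by 0.26.

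Growth signals of the BMP and TGF-beta family act between the retina, pigment epithelium and sclera. BMP4, a ligand, was lower at -1.26, with -5.45 in the covered normal-light pool, against -4.19 in the uncovered violet-light pool, both dim, and at -0.11 after normexp correction it no longer reached 2-fold. ID1 and ID3, which BMP signals induce, were higher at 2.5 and 1.27, ID3 at 0.86 by the median of its probes. ID1 stood at 1.26 and -1.23 in these pools, at 0.25 on the uncovered normal-light array and at -1.21 on the covered violet-light array. Its probes ranged from 1.35 to 2.5, so its size depends on the probe. The matrix protein TGFBI differed by 1.81 and the muscle growth inhibitor MSTN by 1.22. In the whole list, 20 of 29 measured members were above 0, beside 54.6% of all genes, with a median of 0.23. A further member of this list, TGFBR2, was above background in the covered normal-light pool alone, at least 4.00-fold higher there by the scaling used here. In the authors' value table its difference was smaller, at 1.82 (log2). Among 19 eye growth factors and receptors the fibroblast growth factor receptor FGFR2 alone passed 2-fold (1.40). Of 24 measured Wnt genes WNT9A alone did (1.75). Both counts stand beside 2.67% of all genes at 2-fold higher.

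Type IV collagens and connective-tissue matrix genes formed a broad higher group. Of 53 listed matrix genes 32 were measured, 27 were above 0 and 11 were at least 2-fold higher, beside 2.67% of all genes, with a median of 0.69. COL4A2, a chain of basement membranes, had -1.14 in covered eyes under normal light and -3.99 in uncovered eyes under violet light, a difference of 2.85 or 7.22-fold. Its partner chain COL4A1 differed by 2.36, with 1.37, -0.99, 1.14 and -0.40 in the order covered normal, uncovered violet, uncovered normal and covered violet light. On both chains the uncovered normal-light array lay nearer the covered normal-light one. Periostin (POSTN) differed by 2.70, osteoglycin (OGN) by 2.20, the fibrillar collagen COL3A1 by 1.73, tenascin C (TNC) by 1.71 and the gelatinase MMP2 by 1.71. The probes of TNC ranged from 0.40 to 1.71, and their median, 0.86, lay below 2-fold. Fibronectin (FN1) fell just short of 2-fold at 1.00, with probes from 1.00 to 2.53.

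Some markers of vessel and connective-tissue cells were higher as well. Of 9 measured endothelial markers 4 were 2-fold higher, beside 2.67% of all genes, namely the transcription factor SOX18 (2.02), the ETS factor FLI1 (1.85), VE-cadherin CDH5 (1.66) and the lymphatic receptor LYVE1 (1.07). The growth factor receptor KDR differed by 0.16, and the arterial connexin GJA5 was lower at -1.5, but at -0.28 after normexp correction. SOX18 stood at -0.99 in the covered normal-light pool, against -3.01 in the uncovered violet-light pool, with -0.21 on the uncovered normal-light array and -2.98 on the covered violet-light array. All 7 measured smooth muscle and pericyte markers were above 0 (median 0.86), the least of them MYLK at 0.02, which median scaling turns below 0, with smooth muscle actin ACTA2 at 1.70, TAGLN at 1.65 and the smooth muscle myosin MYH11 at 1.32. Of 18 fibroblast markers, which share 15 measured genes with the matrix list, 17 were above 0 and 6 at 2-fold (median 0.72), beside the same 2.67%. A further member of this list, TWIST2, was above background in the uncovered violet-light pool alone, at least 2.62-fold lower in the covered normal-light pool. The summed level of the fibroblast markers was 4.51 (log2) for covered normal light, 3.54 for uncovered violet light, 4.55 for uncovered normal light and 3.53 for covered violet light. Some of these markers were thus higher, as many matrix genes were, but for fibroblasts the shared 15 genes make that largely the same observation. The part of these cell types in the matrix result was not tested.

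**Figure D3:**
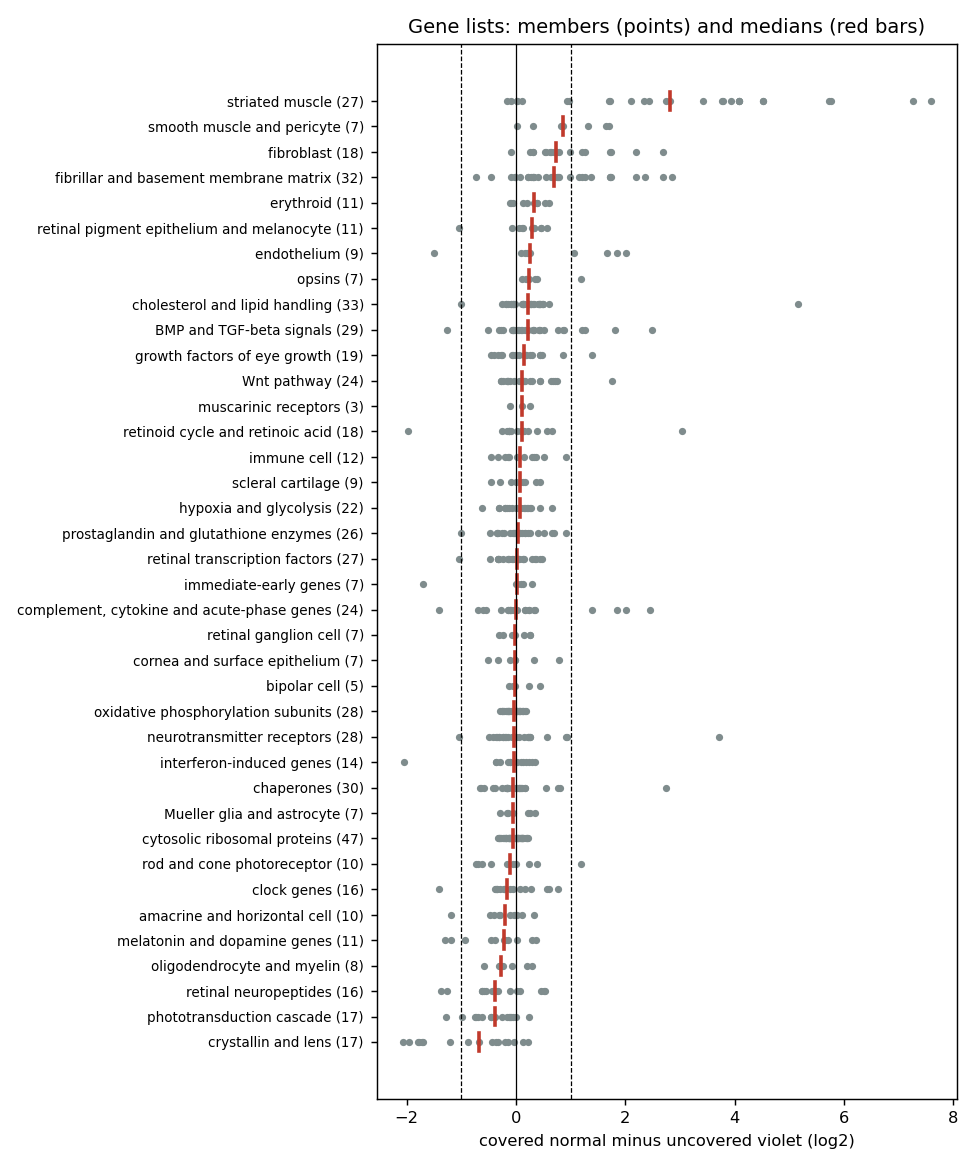
Each row is a gene list with its number of measured genes, each point a member's difference on the horizontal axis (log2, covered normal light minus uncovered violet light) and each red bar the list's median, with dashed lines at 2-fold. Striated muscle (median 2.82), smooth muscle (0.86), fibroblast (0.72) and matrix (0.69) lie highest, and phototransduction (-0.38), neuropeptides (-0.38) and crystallins (-0.68) lowest.

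Genes of striated muscle had the greatest differences of the 38 lists. Of 61 listed, 35 could be named on the array, 27 passed, 25 of these were above 0 and 20 were at least 2-fold higher, beside 2.67% of all genes (median 2.82, and 1.72 to 3.79 over the alternatives). Fast troponin C (TNNC2) had levels of 3.10 in covered eyes under normal light and -4.49 in uncovered eyes under violet light, a difference of 7.58 or 192-fold. It was -3.46 on the uncovered normal-light array and -1.03 on the covered violet-light array, so that the covered violet-light array was intermediate. The myosin light chain MYL10 differed by 7.27 (1.33 against -5.94), with -5.92 for uncovered normal light and -2.24 for covered violet light. The troponins TNNT3 and TNNI2, fast isoforms of T and I, differed by 5.72 and 3.79, and the myosin light chain MYL1 by 3.94. The fast myosin heavy chains MYH1B, MYH1C and MYH1A differed by 5.76, 4.52 and 4.51, but these are near-identical copies whose separate values are uncertain. Of the 20 genes, 18 had both other arrays closer to the uncovered violet-light pool.

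A further 6 genes of the muscle list were above background in the covered normal-light pool but not in the uncovered violet-light pool, so that only a bound can be given. The mitochondrial creatine kinase of muscle, CKMT2, had a level of 1.27 and was at least 296-fold higher by the scaling used here. That is a bound of 8.21 (log2), against a difference of 8.11 in the authors' value table. The light chains MYL2 and MYLPF were at least 107-fold and 28-fold higher, the muscle LIM protein CSRP3 at least 13.4-fold, myoglobin MB at least 12.5-fold and the leiomodin LMOD2 at least 4.57-fold. Outside the list, the sarcoplasmic reticulum enzyme DHRS7C had a bound of 29.7-fold and the muscle calcium channel subunit CACNG1 one of 14.2-fold. Among measured members without a large difference were parvalbumin PVALB (0.03), the myosin-binding protein MYBPC2 (0.03), the actinin ACTN2 (0.12), the ryanodine receptor RYR3 (-0.16) and the myogenic factor MYOG (-0.09). The summed level of the list was 5.76 (log2) for covered normal light, 4.07 for uncovered violet light, 4.23 for uncovered normal light and 4.32 for covered violet light. The muscles that turn the eye lie outside its wall, in birds the iris and ciliary muscles are striated too, and the protocol describes cleaning before the buttons were cut. How muscle RNA came to differ was not tested. With the members of the muscle and lens lists left out, the counts of genes at 2-fold became 109 higher and 28 lower. Muscle genes outside the list, such as PLN (1.47), MYOM2 (1.45) and HSPB2 (2.74), are still in the 109, so the muscle difference is not fully removed.

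Crystallins, the bulk proteins of the lens that retina and pigment epithelium also express, were lower in the covered normal-light pool. Of 17 measured members 15 were below 0 and 7 at least 2-fold lower, beside 0.723% of all genes, with a median of -0.68. CRYBB1 had levels of -5.41 in the covered normal-light pool, against -3.34 in the uncovered violet-light pool, a difference of -2.06 or 4.18-fold, which normexp correction reduced to -0.62, below 2-fold. The bright CRYBA2 stood at 0.86 and 2.62, with -3.46 on the uncovered normal-light array and -0.24 on the covered violet-light array. CRYAA differed by -1.79, ASL1, the delta crystallin of birds, by -1.95, CRYBB2 by -1.71, CRYBB3 by -1.70 and CRYGS by -1.21. For all 7, both other arrays lay closer to the covered normal-light pool, and the uncovered violet-light pool was the highest. The other 3 arrays were not level, however. CRYAA was at -3.33 for covered normal light, above -5.28 for uncovered normal and -3.85 for covered violet light. ASL1 was at -1.90, above -3.66 and -3.50 in the same order. For CRYBA2 the uncovered normal-light array lay farther from the covered normal-light pool than the uncovered violet-light pool did. The lens water channel gene MIP differed by -0.14. The summed level was 3.69, 4.51, 3.03 and 3.47 in the order covered normal, uncovered violet, uncovered normal and covered violet light, and its source was not tested.

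Several other genes ranked with these groups. FABP4, a fatty-acid carrier of fat cells and macrophages, had -1.24 in covered eyes under normal light and -6.40 in uncovered eyes under violet light, a difference of 5.16 or 35.8-fold. It had -6.48 on the uncovered normal-light array and -7.45 on the covered violet-light array, the latter not well above background. Normexp correction reduced the difference to 2.87, so its size is uncertain. The other 32 measured genes of cholesterol and lipid handling lay between -1.0 (APOH) and 0.60 (ELOVL2). The inner-ear protein otospiralin (OTOS) was bright at 2.91 against -1.14, a difference of 4.05 or 16.6-fold, with -0.45 and -0.87 on the other arrays. The Nodal co-receptor CFC1 differed by 4.49 and the peptidase CPA6 by 4.10, and by 2.85 and 2.07 after normexp correction. The endothelin receptor EDNRB stood at -0.32 and -4.03, a difference of 3.71, with -2.81 for uncovered normal light and -4.17 for covered violet light. Its paralogue EDNRB2, which guides pigment cells in birds, was dim and lower at -1.05, but at 0.10 after normexp correction, so its direction is unsettled.

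Immune genes went both ways without a shift of the list medians. The cytokine IL15 differed by 2.45, the death ligand TNFSF10 by 2.02, avidin (AVD) by 1.85 and the interleukin receptor IL1RL1 by 1.39. The chemokine CCL20 was lower at -1.41 (probes at -1.41 and -0.65, and -0.15 after normexp correction). Of the 24 measured complement, cytokine and acute-phase genes, 4 were thus 2-fold higher, beside 2.67% of all genes, and 1 was lower, beside 0.723%. The median of the 24 was 0.0025. Among 14 interferon-induced genes, 7 were above and 7 below 0, with a median of -0.04. IFI6 was the one at 2-fold, beside 0.723% of all genes at 2-fold lower. Its levels were -3.28 for covered normal light, -1.24 for uncovered violet light, -3.96 for covered violet light and 2.12 for uncovered normal light. The last of these stands far above both compared pools. No immune cell marker of 12 was at 2-fold (median 0.08), and none of 11 measured erythroid markers (median 0.33), of 9 cartilage markers (0.08), of 8 myelin markers (-0.27) or of 7 surface epithelium markers (-0.02). With 2.67% of all genes higher and 0.723% lower, these short lists are not set apart by that. The haemoglobin gene HBE1 of the erythroid list was above background in the covered normal-light pool alone, at least 2.35-fold higher there by the scaling used here. In the authors' value table its difference was 0.96 (log2), below 2-fold.

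No gene of hypoxia and glycolysis passed 2-fold among 22 (median 0.07), beside 2.67% of all genes higher and 0.723% lower. Among 26 prostaglandin and glutathione enzymes HPGDS, the prostaglandin D synthase of blood cells, did at -1.0 (-0.84 after normexp correction), as did the small heat shock protein HSPB2 among 30 chaperones (2.74). HSPB2, which muscle makes, was -3.85 against -6.58, with -6.79 and -6.36 on the other arrays, and its difference was 1.36 after normexp correction.

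**Figure D4:**
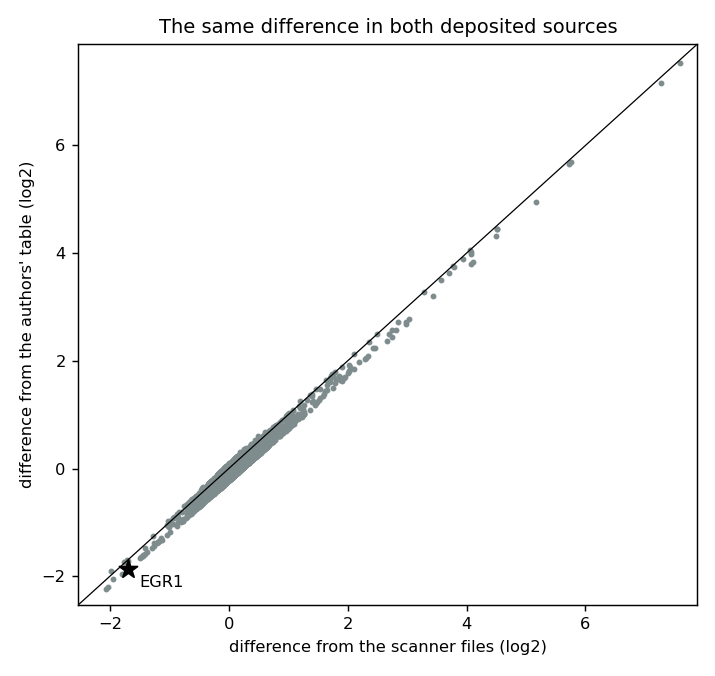
Each point is a gene, with the difference from the scanner files on the horizontal axis and from the authors' value table on the vertical axis, both log2 and covered normal light minus uncovered violet light. The points follow the line of equality with a correlation of 0.981 over genes, and EGR1 lies at -1.69 and -1.86. Both axes come from the same arrays, so the agreement concerns processing alone.

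The goggle and the light can be set apart only through the other 2 arrays, and the 2 deposited labellings then exchange the answers. Both eyes of a chick were under the same light, so the light part is also a difference between sets of birds, and these cannot be told apart. In the compared pools covered eyes were right and uncovered eyes left, so eye side cannot be told apart from the goggle either. Over the 4 arrays, each difference is the sum of a goggle part (mean of covered minus mean of uncovered) and a light part (mean of normal minus mean of violet). With the scanner labels, EGR1 had a goggle part of -1.46 and a light part of -0.24, and with the table's labels the values change places. OPN1LW had parts of 1.43 and -0.24, GRK7 -1.27 and -0.01, RBP4 -1.77 and -0.20, and PER3 -1.23 and -0.17, in the same order. For SOX18 the order was turned, with a goggle part of -0.38 and a light part of 2.40, as for COL4A2 with 0.80 and 2.05 and ID1 with 0.52 and 1.98. EGR1, OPN1LW, GRK7, RBP4 and PER3 thus had their larger part in one factor and SOX18, COL4A2 and ID1 in the other, whichever labelling is used. Other matrix and vessel genes did not follow SOX18 and COL4A2. TNC (1.79 and -0.07), OGN (1.47 and 0.73), POSTN (1.43 and 1.27) and GJA5 (-2.15 and 0.66) had the larger goggle part by the scanner labels. For TNC, OGN and POSTN both other arrays lay closer to the uncovered violet-light pool.

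Counted over the 129 higher genes, the goggle part by the scanner labels was the larger in 47 and the light part in 82. Among the 35 lower genes the counts were 25 and 10. Muscle genes had the larger goggle part by the scanner labels in 17 of 20 cases, while 8 of 11 matrix genes, the 4 higher endothelial genes and 3 of 3 smooth muscle genes had the larger light part. Of the 7 crystallins, 6 also had the larger light part. However, 18 of the 20 muscle and 4 of the 11 matrix genes had both other arrays closer to the uncovered violet-light pool. All 7 crystallins had both closer to the covered normal-light pool. There the larger part rests on the gap between those arrays and does not assign a gene to goggle or light. Of the 129 higher genes, 64 had both arrays closer to the uncovered violet-light pool and 3 to the covered normal-light one. For the 35 lower genes the counts were 2 and 10. For 61 of the 129 higher and 14 of the 35 lower genes both other arrays lay between the compared ones.

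**Figure D5:**
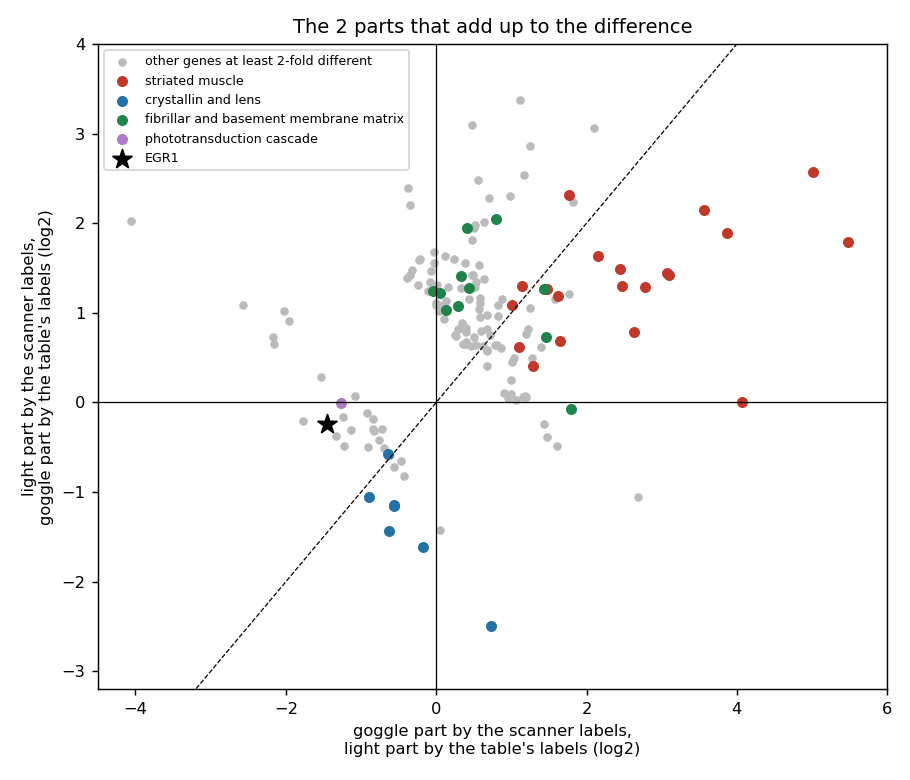
Each point is a gene at least 2-fold different, placed by its goggle part on the horizontal axis and its light part on the vertical axis by the scanner labels, which the table's labels exchange (both log2). EGR1 at -1.46 and -0.24 lies near the horizontal axis, most muscle genes lie below the dashed line of equal parts, and most matrix genes and crystallins lie nearer the vertical axis.

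Where a gene had several probes they mostly gave the same direction. Of the 164 genes at 2-fold, 76 had at least 2 probes, and all probes passed 2-fold the same way for 42. For 6 genes the probes did not share one sign in both the scanner files and the authors' value table, namely CBFA2T3, CLIC2, LOC419112, MPZL2, PRKAG3 and SLC9A9, so these have no settled direction. The widest gap was in the cardiac actin ACTC1, with probes at 0.40 and 3.78, followed by the peptidase ANPEP (0.54 and 3.29) and ATP1B4 (0.26 and 2.66).

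Over all named genes, 40 were above background in the covered normal-light pool alone, 24 of them with a bound of at least 2-fold. In the uncovered violet-light pool alone there were 66, of which 13 had such a bound. The latter were led by LOC427470 (at least 8.90-fold higher in the uncovered violet-light pool), the glutathione transferase GSTA3 (at least 5.08-fold), the lymphocyte receptors CD226 and LAG3 (at least 2.82-fold and 2.80-fold), ANKRD22 (at least 2.78-fold) and the mesenchymal transcription factor TWIST2 (at least 2.62-fold). All 37 had the same direction in the authors' value table, which holds values of the same arrays. The bounds hold for the scaling used here, and the table's difference lay below the bound for some genes and above it for others. It was 0.96 against a bound of 1.23 (log2) for HBE1, and 6.14 against 4.89 for DHRS7C. The lowest level well above background was -6.58 on the covered normal-light array and -6.93 on the uncovered violet-light array. The counts of 40 and 66 thus rest on unlike floors. Bounds ran down to 1.27-fold among the 40 and 0.80-fold among the 66, and a bound below 1 sets no direction.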

How the data were processed

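Expression was measured on 4 Agilent chicken arrays of 1 colour (Cy3), 1 per pool and all on 1 slide, read with Feature Extraction 11.5.1.1 per the submitters' processing notes. Per the file headers, the deposited scanner intensity is background-subtracted and detrended within each array, not scaled between arrays; other deposited columns are flags. The values in the authors' table are linear intensity, with column medians of 218.35 (covered normal), 218.57 (uncovered violet), 218.39 (uncovered normal) and 218.67 (covered violet) over gene probes; set against the scanner files it is uncentred and runs the same way, and the sources used here do not state its normalization. Levels are log2 of the processed intensity minus the array's 75th percentile over probes that are not controls. A probe passed if well above background on both arrays, with no outlier flag (12 probes were left out) and no saturation, and a gene is represented by the passing probe that was brightest on average. For genes above background on one array, the bound set the bright level against the higher of the dim array's lowest signal well above background and the probe's own. Names came from an unversioned accession match to RefSeq (GRCg7b): 11711 probes have 1 gene symbol and 31892 none. The headers name an older build, so no coordinates are given. Alternatives were other scalings, normexp (limma 3.58.1, R 4.3.3, offset 50), the table, other probe rules and filters, and 1.5-fold. The mean-signal column planned for normexp was not used here; the spot median stood in. Other steps used Python 3.11.15 and were tested on simulated data. Named are EGR1, the 15 highest and 15 lowest genes with concordant probes, up to 4 members per list, 6 genes per direction by bound and the 5 with the widest probe disagreement; members of opsin, muscarinic and immediate-early lists are given in full, and further list members and genes were named after their values were seen. The comparison and the lists were chosen with earlier results of these data known.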

Additional observations from a re-analysis of the deposited data

How the results depend on the processing

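No paired analysis was possible because each group is 1 pooled array. The counts of 129 higher and 35 lower genes became 106 and 45 when arrays were scaled to their medians (the median over all genes then went from 0.03 to -0.12), 106 and 40 by quantile normalization, 109 and 36 by cyclic loess, 135 and 33 with the percentile over detected probes and 103 and 37 in the authors' value table. They were 88 and 12 with normexp background correction, 31 and 12 among brighter probes (3436 genes), 196 and 91 with no filter on dim probes (5293 genes), and 307 and 98 at 1.5-fold. Normexp adds an offset, which shrinks differences of dim genes: EGR1 came to -0.96, 87 of the higher and 12 of the lower genes stayed past 2-fold, and 4 of the 164 changed sign, among them CDKN2A and EDNRB2 at 0.056 and 0.10. By the median of probes 2 of the 164 changed sign. EGR1 was lower in all 10 alternatives that measured it (the brighter probes leave it out), between -1.86 and -1.64 in the other 9. Of 1682 values for named genes over all alternatives, 1554 moved by less than the probe spread, 126 by more and 2 changed sign. Without the striated muscle and lens lists, an alternative added after the data were seen, the counts were 109 and 28, with muscle genes outside the lists still in them. Signal over background limits the dim genes, where most 2-fold differences lie, and the number of arrays limits all values: none has an error between animals.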

Other observations

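Outside the lists, 76 of the 129 higher and 12 of the 35 lower genes remained, and the following were chosen after their values were seen. Among the higher ones, the transcription factor TBX18 differed by 2.30, TBX22 by 1.96, MSX1 by 1.90, TCF15 by 1.61, BARX2 by 1.53, GSC by 1.42, MSX2 by 1.25, SIX2 by 1.23, FOXD3 by 1.19 and ZIC1 by 1.00. BARX2 was at -0.49 in covered eyes under normal light and -2.02 in uncovered eyes under violet light. The fibrinogen-like FGL2, a product of T cells and macrophages, differed by 3.58, with -0.30 against -3.88 and -2.48 on the uncovered normal-light array. GPER1, a membrane receptor for oestrogen, differed by 2.98, the actin-severing gelsolin GSN by 1.47 at a bright level (2.33 against 0.85), and the mitochondrial adenine nucleotide carrier SLC25A4 by 1.78.

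Among the lower genes outside the lists, COQ8A, a kinase-like protein of coenzyme Q synthesis, was the bright one at 2.79 against 3.81 (-1.02), with probes from -1.02 to -0.035 and -0.98 in the authors' value table, and the myelin-associated PLLP differed by -1.03. Unnamed probes held further differences: of 25436 that passed, 430 were at least 2-fold higher and 91 lower, between -2.54 and 5.98.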
